A study of Mus musculus with 6 samples.

Results

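Zinc handling in a β cell line was described through 10 genes, namely 8 zinc transporters (*Slc30a8*, *Slc30a1*, *Slc30a5*, *Slc30a6*, *Slc30a7*, *Slc39a6*, *Slc39a7* and *Slc39a14*) and the 2 metallothioneins *Mt1* and *Mt2*. The genes were chosen by name and matched to Ensembl identifiers through the GENCODE M21 annotation, and they are 10 of the 53801 mouse genes with a value in each library. All 10 had a mean of at least 0.5 TPM over the libraries and entered the test. TPM, or transcripts per 1000000, divides the reads of a gene by its length and then brings every library to the same total of 1000000.

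RNA was sequenced from 6 clonal lines of MIN6, an insulinoma line from mouse in which β cell biology is commonly studied. All 6 lines descend from MIN6 cells that express Cas9, a nuclease guided by RNA, and went through infection with a guide RNA lentivirus, puromycin selection and outgrowth from single cells. In the 3 control lines (Control 1 to 3) Cas9 was directed to intron 2 of *Snd1*, and in the 3 *Snd1* KO lines (Snd1 KO 1 to 3) to exon 2 of the same gene, which encodes a transcriptional coregulator. The comparison asks which RNAs differ when SND1 is disrupted. Each line is 1 clone with 1 library, so the error given below is the spread between clones, and a difference that a clone already carried before editing cannot be told apart from one that followed it.

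Zinc is imported into the cytosol by ZIP proteins (*Slc39* genes) and moved out of it, to the outside or into organelles, by ZnT proteins (*Slc30* genes), while metallothioneins bind zinc and copper through clusters of cysteines. β cells are unusually rich in zinc because insulin is stored in the secretory granule as hexamers held together by zinc ions, which ZnT8, the product of *Slc30a8*, supplies. Metallothionein genes and *Slc30a1* are textbook targets of MTF1, a transcription factor that senses zinc and binds metal response elements in their promoters.

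The coding sequences of *Mt1* and *Mt2* are shown because these neighbouring genes encode closely related proteins and their reads must be told apart. Both were taken from the lowest numbered transcript of the gene in GENCODE M21. Capitals mark the bases at which they differ.
Mt1: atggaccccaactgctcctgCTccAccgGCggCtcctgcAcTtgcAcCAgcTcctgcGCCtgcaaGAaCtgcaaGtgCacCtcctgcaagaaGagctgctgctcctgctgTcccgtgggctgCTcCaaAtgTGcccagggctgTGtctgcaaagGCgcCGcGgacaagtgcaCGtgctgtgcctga
Mt2: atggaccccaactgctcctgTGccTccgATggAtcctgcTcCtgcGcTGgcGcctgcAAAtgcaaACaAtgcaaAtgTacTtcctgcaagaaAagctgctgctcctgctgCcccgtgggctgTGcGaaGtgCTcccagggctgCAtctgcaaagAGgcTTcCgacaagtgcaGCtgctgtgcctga
Each holds 186 bases and 61 codons before the stop, of which 20 are cysteine codons. They differ at 38 bases (79.57% identity), and the longest stretch they share is 20 bases, shorter than the reads of 100 bases. No 100-base window of an *Mt1* transcript was found in another annotated gene.

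The 250 bases upstream of the start of *Mt1*, *Mt2* and *Slc30a1* are shown because these 3 genes are the textbook targets of MTF1 among the members. Sequences are from RefSeq on GRCm38.p6, where 7 of the 10 members had an entry, and the 3 shown lie on the plus strand (chr8:94178839-94179088, chr8:94172368-94172617 and chr1:191906531-191906780, respectively). Capitals mark matches to the core of the metal response element, searched as TGCACNC and TGCGCNC on both strands.
Mt1: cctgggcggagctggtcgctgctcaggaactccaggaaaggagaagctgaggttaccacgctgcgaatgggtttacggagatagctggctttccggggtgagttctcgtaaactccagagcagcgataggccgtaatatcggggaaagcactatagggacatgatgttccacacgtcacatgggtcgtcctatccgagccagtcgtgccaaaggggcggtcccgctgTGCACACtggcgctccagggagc
Mt2: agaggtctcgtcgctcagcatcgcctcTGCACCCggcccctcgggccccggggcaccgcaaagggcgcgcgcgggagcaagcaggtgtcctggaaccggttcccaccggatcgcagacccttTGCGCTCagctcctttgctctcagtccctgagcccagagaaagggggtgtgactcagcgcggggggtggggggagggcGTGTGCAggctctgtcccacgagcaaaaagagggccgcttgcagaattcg
Slc30a1: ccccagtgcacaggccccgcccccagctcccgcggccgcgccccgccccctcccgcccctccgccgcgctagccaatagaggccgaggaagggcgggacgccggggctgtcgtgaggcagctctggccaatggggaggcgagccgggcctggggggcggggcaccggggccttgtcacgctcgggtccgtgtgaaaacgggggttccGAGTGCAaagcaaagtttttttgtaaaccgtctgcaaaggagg
Over 300 bases, from 250 before to 50 after the start, the *Mt2* promoter held 4 cores, *Mt1* 3 and *Slc30a1* 2. *Slc30a5* held 1, and *Slc30a6*, *Slc30a7* and *Slc39a7* held 0. Of 32851 promoters of the same length, 25.7% held at least 1 core, 7.11% at least 2, 1.97% at least 3 and 0.517% at least 4. The start is that of the RefSeq entry, and the gene start in GENCODE M21 differs (94179082 for *Mt1*, 94172664 for *Mt2* and 191906767 for *Slc30a1*). Cores outside the 300 bases, such as near another start of the gene, were not searched. A match describes the letters and is not evidence of binding.

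Between 25767608 and 32969427 reads per library were recovered from the TPM values, which would be 12883804 to 16484714 pairs if each mate was counted separately. *Snd1* RNA was at 112 to 119 TPM in the control clones and at 14.7, 57.1 and 19.9 TPM in Snd1 KO 1 to 3, so that the edited gene was lower in each labelled KO clone. All 9 β cell markers searched were above 1 TPM in at least 1 clone, *Ucn3* in Snd1 KO 1 alone. Of the other pancreatic cell types, *Hhex* of δ cells was at 0 in every clone, *Sst* reached at most 2.42 TPM, and the summed acinar, duct, endothelial, fibroblast and immune markers reached at most 3.92 TPM per type. Of the α cell genes searched, *Gcg* and *Ttr* were above 1 TPM. *Ttr*, which β cells also express, was at 14122 to 20138 TPM in the controls and at 3032 to 8774 TPM in the *Snd1* KO clones, and its part in the values of the zinc genes was not tested. The clones did not group by label over 11368 genes. Control 1 and Control 2 were most alike (Pearson r = 0.980), followed by Snd1 KO 2 and Snd1 KO 3 (0.974), and the r of Control 3 was higher with Snd1 KO 3 (0.955) and with Snd1 KO 2 (0.949) than with Control 1 (0.943) or Control 2 (0.936). The highest r of Snd1 KO 1 was 0.938, with Control 3, which was under the highest r of every other clone. Its lowest was 0.922, with Snd1 KO 2. Where a member's difference changed sign or moved by over 1.5 times without Control 3 or without Snd1 KO 1, that value is also given.

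On the deposited TPM scale the members spanned from a mean of 624 TPM for *Slc30a8* to 14.3 TPM for *Slc39a14* over the 6 clones. The order from high to low was *Slc30a8*, *Mt2*, *Mt1*, *Slc39a6*, *Slc30a5*, *Slc30a7*, *Slc30a1*, *Slc30a6*, *Slc39a7* and *Slc39a14*. Neighbours in this order mostly overlapped in their ranges over the clones. The exceptions were *Slc39a6* (124 to 156 TPM) above *Slc30a5* (54.0 to 74.3 TPM), and *Slc30a5* above *Slc30a7* (28.0 to 42.6 TPM). *Mt2* was above *Mt1* in 6 of 6 clones, whereas *Slc30a8* was above *Mt2* in 4 of 6. For 8 of the 10 members the deposited TPM gave whole reads with the summed exon length of all annotated transcripts, which lowers genes with many transcripts, and for *Slc30a6* and *Slc39a7* with a length found by search (8654 and 8757 bases, against summed lengths of 10726 and 8044). With the exonic bases of a gene counted a single time each, the first 5 genes kept their order, and *Slc39a7* (mean 36.1 TPM) and *Slc30a6* (35.9 TPM) came before *Slc30a7* (23.6 TPM), *Slc39a14* (16.9 TPM) and *Slc30a1* (16.2 TPM).

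**Figure D1:**
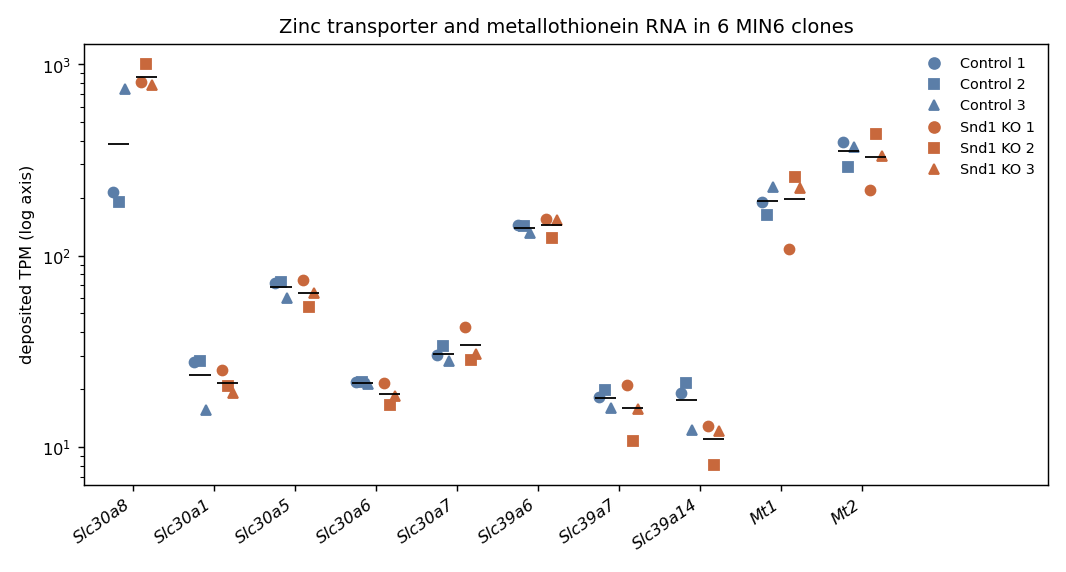
Deposited TPM (log axis) of the 10 zinc handling genes in 3 control clones (blue) and 3 *Snd1* KO clones (orange), with the clone number as the symbol and a line at each group mean. *Slc30a8* ranged from 191 to 1005 TPM, with Control 3 beside the *Snd1* KO clones, while the other transporters varied less between clones.

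*Slc30a8* was the member with the largest difference between the groups. The gene (ENSMUSG00000022315, chr15:52295553-52335798 in GRCm38, plus strand, 1 annotated transcript) encodes ZnT8, which loads zinc into insulin granules. Its level was 215, 191 and 744 TPM in Control 1 to 3 and 809, 1005 and 779 TPM in Snd1 KO 1 to 3, on 2044 to 9852 reads per clone. The 3 *Snd1* KO clones were alike and all above the control clones, of which Control 1 and Control 2 were low and Control 3 was close to the KO level. The group means were 383 ± 312 TPM for the controls and 864 ± 123 TPM for *Snd1* KO (SD, n = 3), a ratio of 2.26. On the log2(TPM + 1) scale the difference, *Snd1* KO minus control, was 1.45 with a standard error of 0.50 and a 95% interval of 0.26 to 2.65. By limma the unadjusted p was 0.0244 and the adjusted p over 17823 genes was 0.585, so *Slc30a8* did not pass the threshold of an adjusted p under 0.05 and at least 2-fold. An exact permutation test gave p = 0.1, the smallest that 3 against 3 clones allow. Because RNA was measured from whole cultures, fewer cells with the transcript and less transcript per cell cannot be told apart.

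The difference in *Slc30a8* rested on the low values of Control 1 and Control 2, and Control 3 reduced it. Control 1 and Control 2 were also the clones most alike over all genes (Pearson r = 0.980). Without Control 3 the log2 difference was 2.08 (limma adjusted p = 0.0571), whereas it was 1.19 without Control 1 and 1.10 without Control 2 (adjusted p = 0.938 and 0.983). Leaving out a *Snd1* KO clone gave 1.34 to 1.52. The unadjusted limma p was under 0.05 without Control 3 (3.1e-05), and 0.0572 to 0.0832 when any 1 of the other 5 clones was left out. The gap between Control 3 and the lowest KO clone was small enough that the groups overlapped after scaling by the median ratio and after voom on the recovered reads, with fitted differences of 1.41 and 1.46. With weights for clone quality, in which Control 3 (0.279) and Snd1 KO 1 (0.286) counted least and Snd1 KO 3 (3.91) most, the difference was 1.89 and the adjusted p 0.0216. That setting called 5.02% of all genes, against 0.00561% (1 of 17823) with equal weights.

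The other ZnT genes did not follow *Slc30a8*. Over the 10 *Slc30* genes, *Slc30a8* made up 45.3%, 40.5% and 78.7% of the summed TPM in Control 1 to 3 and 76.1%, 84.2% and 78.2% in Snd1 KO 1 to 3. The remaining 9 genes together were at 260, 280 and 202 TPM in the control clones and 254, 189 and 217 TPM in the *Snd1* KO clones, with overlapping groups. The clones thus differed in total ZnT RNA, from 470 to 1195 TPM, mainly through this 1 gene. With each exonic base counted once the share was 43.7% ± 21.6 in control and 70.2% ± 5.38 in *Snd1* KO (SD, n = 3), against 54.8% ± 20.8 and 79.5% ± 4.17 on the deposited scale.

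**Figure D2:**
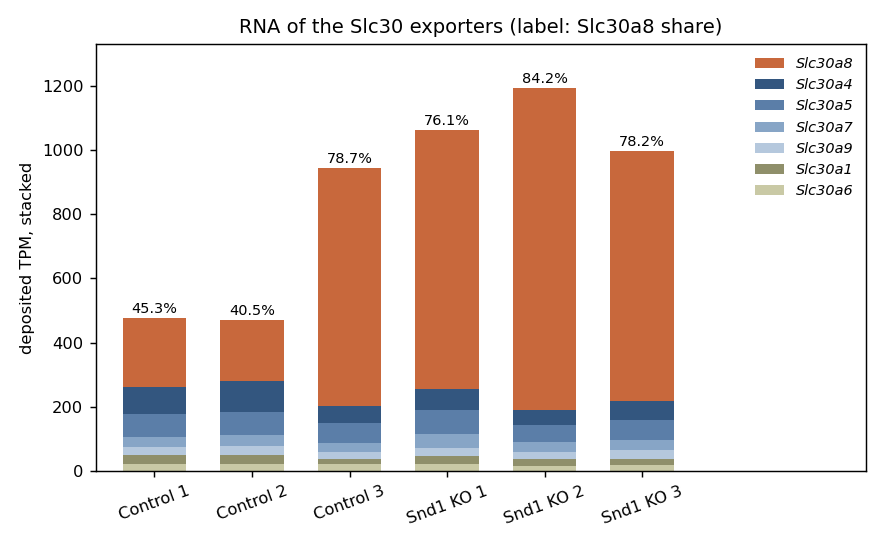
Stacked deposited TPM of 7 of the 10 *Slc30* genes in each clone, with the percentage of the summed TPM of all 10 that came from *Slc30a8* above each bar. *Slc30a2*, *Slc30a3* and *Slc30a10* are not drawn, since each was under 0.1 TPM in every clone. The *Slc30a8* segment is small in Control 1 (45.3%) and Control 2 (40.5%) and fills 76.1% to 84.2% of the bar in the other clones.

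Genes whose values over the 6 clones were most like those of *Slc30a8* on the log2(TPM + 1) scale, among the 11368 genes whose mean reached 5 TPM, were *Rassf1*, *Pyroxd2* and *Sgpp2* (Pearson r = 0.998, 0.996 and 0.993, as a description over clones that also share their labels). *Rassf1*, which encodes a Ras association domain protein, was at 2.77, 2.68 and 5.98 TPM in control and 6.37, 7.67 and 6.19 TPM in *Snd1* KO clones. *Pyroxd2*, which encodes a mitochondrial oxidoreductase, was at 0, 0.0589 and 6.41 TPM and at 8.95, 10.5 and 8.12 TPM. *Sgpp2*, which encodes a phosphatase of sphingosine 1-phosphate, was at 78.5, 71.6 and 128 TPM and at 139, 159 and 128 TPM. They were chosen for this likeness, so their values describe it and are no further evidence. The genes within 1000000 bases of *Slc30a8* on chromosome 15 with a mean of 5 TPM or more were *Eif3h*, *Utp23*, *Rad21*, *Aard* and *Med30*, and they were named after their values were seen. Their highest clone was 1.15 to 1.74 times the lowest, compared with 5.27 times for *Slc30a8*. *Aard* had a log2 difference of -0.47 (limma unadjusted p = 0.0275, adjusted p = 0.591), lower in *Snd1* KO, and the other 4 genes had -0.11 to 0.15.

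**Figure D3:**
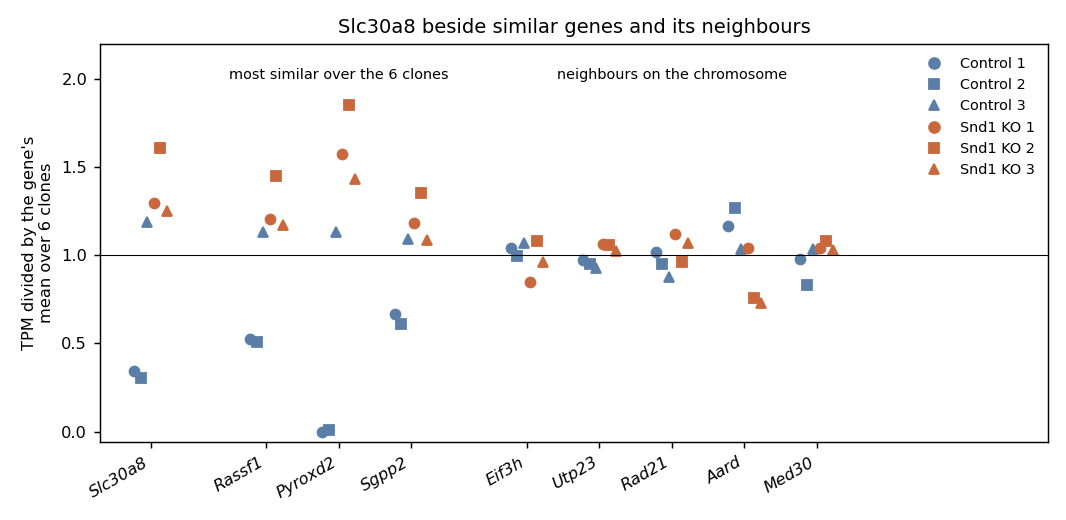
TPM of *Slc30a8*, of the 3 genes most like it and of 5 neighbours within 1000000 bases, each divided by its mean over the 6 clones, by clone (control blue, *Snd1* KO orange, clone number as the symbol). Control 1 and Control 2 lie far under the other clones for the first 4 genes, while the neighbours stay within 1.74 times between their highest and lowest clone.

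*Slc30a1* encodes ZnT1, the exporter of the plasma membrane. It was at 27.9, 28.2 and 15.6 TPM in the control clones and 25.3, 20.8 and 19.1 TPM in the *Snd1* KO clones. Control 3 was the lowest of the 6, and the KO clones lay inside the control range. The log2 difference was -0.10 with a 95% interval of -0.69 to 0.49 (limma adjusted p = 0.938). It was -0.37 without Control 3 (adjusted p = 0.362), -0.21 without Snd1 KO 1 and 0.04 without Control 2, so its direction was not stable. Of the 100-base windows of its transcripts, 7.06% overlapped the antisense gene *1700034H15Rik*, which was at most at 1.09 TPM.

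*Slc30a5*, *Slc30a6* and *Slc30a7* encode the transporters ZnT5 to ZnT7, which deliver zinc into the early secretory pathway, with ZnT5 and ZnT6 acting as a pair. *Slc30a5* was at 72.1, 72.8 and 60.0 TPM in control and 74.3, 54.0 and 63.8 TPM in *Snd1* KO clones. *Slc30a6* was at 21.9, 21.9 and 21.4 TPM and at 21.7, 16.6 and 18.5 TPM. The control clones of *Slc30a6* were within 1 TPM of each other, and Snd1 KO 1 lay among them while Snd1 KO 2 and Snd1 KO 3 were lower. *Slc30a7* was at 30.4, 33.6 and 28.0 TPM and at 42.6, 28.6 and 30.7 TPM, with Snd1 KO 1 alone above the control clones. The log2 differences of the 3 genes were -0.10, -0.20 and 0.13, with 95% intervals of -0.46 to 0.26, -0.51 to 0.12 and -0.28 to 0.54. Without Snd1 KO 1 the groups of *Slc30a6* did not overlap (33.5% of all genes without that clone), with a difference of -0.29 (limma adjusted p = 0.329), and that of *Slc30a7* was -0.04, compared with 0.06 without Control 3. The difference of *Slc30a5* was -0.19 without Control 3 and -0.21 without Snd1 KO 1. The 3 intervals did not reach 1 or -1, the size of a 2-fold difference, and the limma adjusted p was 0.710 to 0.881, which does not show that the groups were alike. Of the *Slc30a7* windows, 14.4% overlapped the pseudogenes *Gm43106* and *Gm6649* on the opposite strand, which were under 1 TPM in every clone.

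Of the 3 *Slc39* members, *Slc39a6* was the most abundant in deposited TPM and the most even between clones. It encodes ZIP6 of the plasma membrane and was at 144, 144 and 131 TPM in the control clones and 156, 124 and 153 TPM in the *Snd1* KO clones. The highest and the lowest value both came from KO clones, and they differed 1.26-fold. The log2 difference was 0.04 with a 95% interval of -0.26 to 0.34 (limma adjusted p = 0.950), and its sign changed under scaling by the median ratio, without Control 3 (-0.0031) and without Snd1 KO 1 (-0.020).

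*Slc39a14* had the lowest mean level on the deposited scale and the most negative fitted difference among the members. It encodes ZIP14, which carries iron and manganese as well as zinc. It was at 19.1, 21.6 and 12.2 TPM in control and 12.9, 8.08 and 12.1 TPM in *Snd1* KO clones, on 796 to 2329 reads. Control 3 again lay among the KO clones, under Snd1 KO 1, so the groups overlapped. The group means were 17.6 ± 4.85 and 11.1 ± 2.61 TPM (SD, n = 3), and the log2 difference was -0.62 with a standard error of 0.26 (95% interval -1.24 to 0.0047). The unadjusted limma p was 0.0513 and the adjusted p 0.607. Without Control 3 the difference was -0.85 (adjusted p = 0.232), and with weights for clone quality it was -0.74 (adjusted p = 0.0356), which is under 2-fold. After quantile normalization, scaling by the median ratio or voom on the recovered reads, the groups of *Slc39a14* did not overlap (14.2%, 14.4% and 14.2% of all genes). The unadjusted limma p was then under 0.05 (8.15%, 8.29% and 8.75% of all genes). The groups also did not overlap without Control 3 or without Snd1 KO 1 (35% and 33.5% of all genes).

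*Slc39a7* encodes ZIP7, which releases zinc from the endoplasmic reticulum and Golgi into the cytosol. It was at 18.3, 19.9 and 15.9 TPM in control and 21.1, 10.8 and 15.9 TPM in *Snd1* KO clones, with Snd1 KO 1 the highest and Snd1 KO 2 the lowest of the 6. The log2 difference was -0.21 (95% interval -0.78 to 0.36, limma adjusted p = 0.824), 0.03 without Snd1 KO 2 and -0.43 without Snd1 KO 1 (adjusted p = 0.404). Its level is uncertain, since 68.9% of its windows are shared with *Gm20427*, a noncoding gene annotated on the same strand and listed at 0.199 to 0.923 TPM, and how shared reads were assigned is not given in the sources used here.

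The metallothioneins varied more between *Snd1* KO clones than between the groups. *Mt1* was at 191, 163 and 229 TPM in the control clones and 109, 257 and 225 TPM in the *Snd1* KO clones. *Mt2* was at 392, 290 and 372 TPM and at 220, 435 and 333 TPM. For both genes Snd1 KO 1 was the lowest and Snd1 KO 2 the highest of the 6 clones, and the control clones lay between. The means of *Mt1* were 194 ± 33.2 and 197 ± 77.8 TPM, and those of *Mt2* were 352 ± 53.9 and 330 ± 107 TPM (control and *Snd1* KO, SD, n = 3). The log2 differences were -0.06 (95% interval -0.84 to 0.72) for *Mt1* and -0.14 (-0.76 to 0.49) for *Mt2*, with limma adjusted p of 0.975 and 0.909. Without Snd1 KO 1 both differences turned positive, to 0.32 and 0.13, and without Control 3 those of *Mt1* and *Mt2* were 0.07 and -0.09. For *Mt2*, 22.4% of the windows overlapped the antisense gene *Gm45774*, which was at 3.59 to 5.51 TPM, and no overlap was found for *Mt1*.

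*Mt1* and *Mt2* lie side by side on chromosome 8, and their values were correlated over the 6 clones. On the log2(TPM + 1) scale Pearson's r was 0.924 (exact permutation p = 0.0153) and Spearman's rho 0.829 (exact permutation p = 0.0583), as the single relation tested. The permutation takes the 6 clones as exchangeable, although some were alike over all genes. How many other genes reach this r with *Mt1* was not counted. Without Control 2 and Snd1 KO 1, the clones farthest from the median of *Mt1*, r was 0.306 over 4 clones (exact permutation p = 0.75). The relation thus rests on those clones, whose removal also narrows the range of *Mt1* and leaves few points. The ratio of *Mt2* to *Mt1*, in deposited TPM, was 2.05, 1.78 and 1.63 in the control clones and 2.02, 1.69 and 1.48 in the *Snd1* KO clones, with overlapping groups. *Mt3*, the metallothionein known from brain, lies beside them and was highest where they were lowest. It was at 126, 100 and 108 TPM in control and 180, 60.2 and 69.9 TPM in *Snd1* KO clones, and made up 35.3% of the summed metallothionein TPM in Snd1 KO 1 and 8.01% to 18.1% in the other clones.

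**Figure D4:**
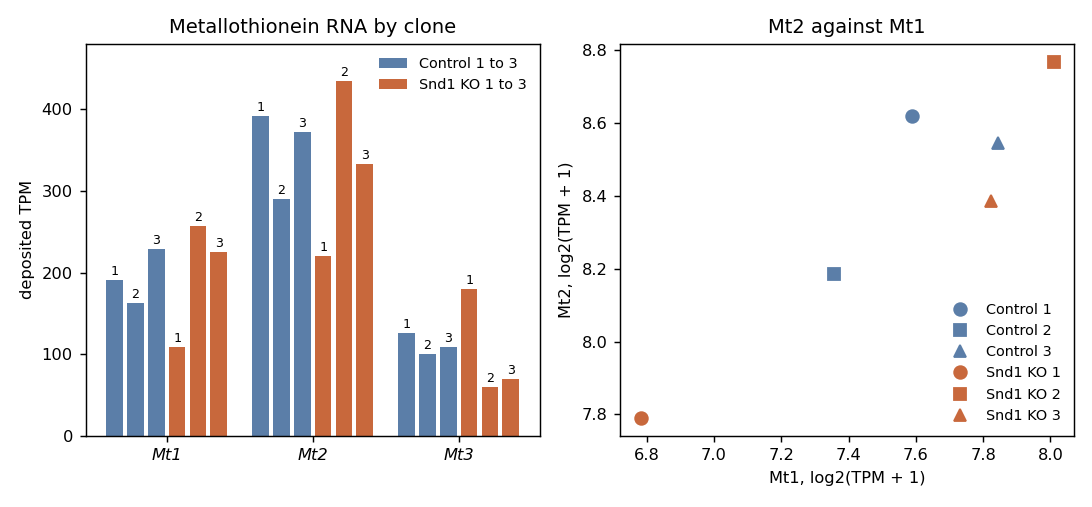
Left, deposited TPM of *Mt1*, *Mt2* and *Mt3* by clone, with the clone number above each bar (control blue, *Snd1* KO orange). Right, log2(TPM + 1) of *Mt2* against *Mt1*, 1 point per clone. Snd1 KO 1 is lowest for *Mt1* (109 TPM) and *Mt2* (220 TPM) and highest for *Mt3* (180 TPM), and the points other than Control 2 and Snd1 KO 1 cover a narrow range of *Mt1*.

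The genes whose values were most like those of *Mt1* by the same measure were *Fbxo6*, *Enkd1* and *Cln6* (r = 0.997, 0.996 and 0.993). *Cln6*, which encodes a protein of the endoplasmic reticulum, was the most abundant of them at 210, 194 and 251 TPM in control and 129, 302 and 261 TPM in *Snd1* KO clones. *Fbxo6*, which encodes a subunit of a ubiquitin ligase, ranged from 3.30 TPM in Snd1 KO 1 to 7.76 TPM in Snd1 KO 2, and *Enkd1* from 4.95 to 15.8 TPM in the same clones.

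As a group, 0 of the 10 members passed the threshold, beside 0.00561% of all genes tested. *Snd1* itself did not pass, with a log2 difference of -2.11 and a limma adjusted p of 0.511, although its groups did not overlap. At the same limits of fold and false discovery rate the study reported many more genes, by its own processing. A count of 0 therefore does not show that the members were unaffected. At an unadjusted limma p under 0.05 there was 1 member, *Slc30a8*, against 7.96% of all genes. *Slc30a8* was also the 1 member whose groups did not overlap, beside 13.7% of all genes in either direction and 9.69% with *Snd1* KO higher. No member had all *Snd1* KO clones under all control clones, which held for 4.03% of all genes. A count of 1 in 10 is thus near the background on both measures. The fitted difference was above 0 for 3 members and below 0 for 7, with a median of -0.10. Over all 17823 genes it was above 0 for 10208 and below 0 for 7615, with a median of 0.04. Of all genes with groups that did not overlap, 70.6% were higher in *Snd1* KO, and this share was 53.0% after scaling by the median ratio and 46.8% after quantile normalization.

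**Figure D5:**
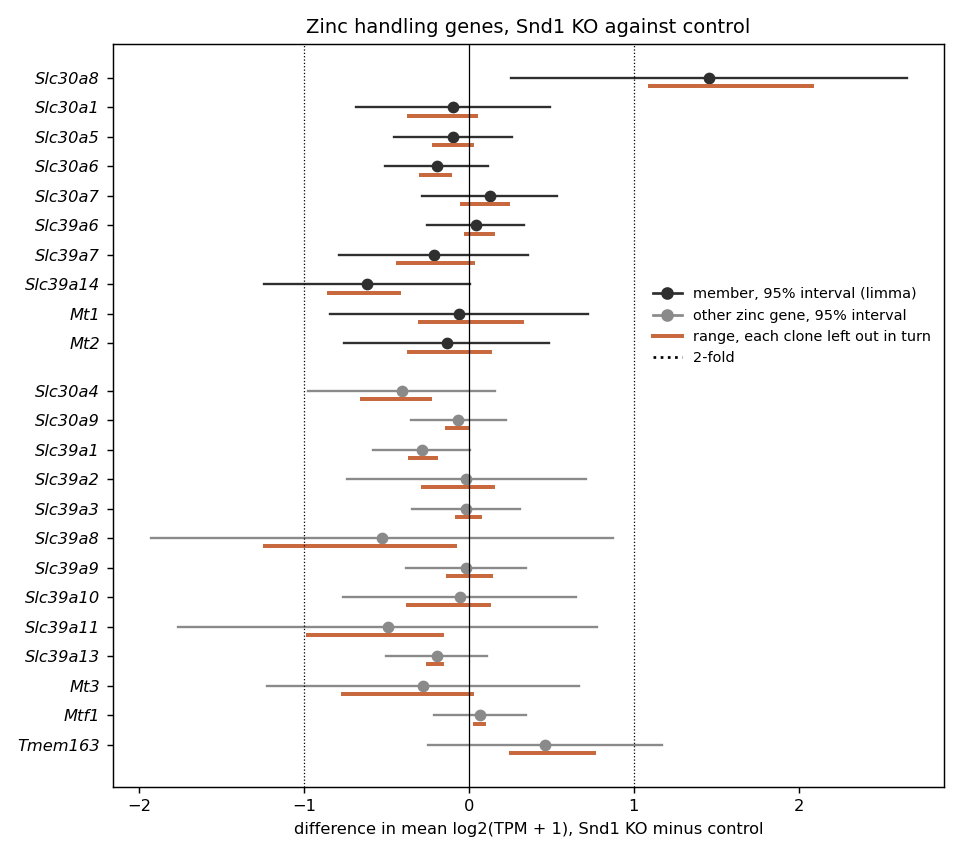
Difference in mean log2(TPM + 1), *Snd1* KO minus control, for the 10 members (black) and 13 other zinc genes (grey), with 95% intervals from limma, and in orange the range of the difference when each clone was left out in turn. *Slc30a8* (1.45) is the 1 gene of these 23 whose interval lies away from 0, and *Slc39a14* (-0.62) has an interval that ends at 0.0047.

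The other zinc genes searched were 20, of which 13 were tested. *Slc30a2*, *Slc30a3*, *Slc30a10*, *Slc39a4*, *Slc39a5* and *Slc39a12* had at most 3 reads in any clone, and *Mt4* had 0. By limma, 0 of the 13 passed the threshold and 0 had an unadjusted p under 0.05, with a median log2 difference of -0.06. The difference was fitted above 0 for 2 genes and below 0 for 11, beside 10208 and 7615 of all 17823 genes. In 2 of the 13 genes all *Snd1* KO clones were under all control clones, beside 4.03% of all genes, and 0 had them all above. In either direction the groups did not overlap for 13.7% of all genes. Over all 17823 genes 718 were lower in this way, 1205 after scaling by the median ratio and 1346 after quantile normalization. *Slc39a1*, which encodes the importer ZIP1, was at 82.8, 86.5 and 73.2 TPM in control and 68.2, 58.4 and 72.2 TPM in *Snd1* KO clones (log2 difference -0.29, standard error 0.12, limma adjusted p = 0.607). *Slc39a13*, which encodes ZIP13 of intracellular vesicles, was at 13.2, 12.8 and 11.6 TPM and at 10.8, 10.2 and 11.4 TPM (log2 difference -0.20, adjusted p = 0.701). For both genes the gap between the groups was small, between Control 3 and Snd1 KO 3.

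*Slc39a8* varied widely between clones. In deposited TPM it came after *Mt3* among the other zinc genes (means of 87.8 and 107 TPM), an order that turned with each exonic base counted once (147 and 91.9 TPM). It encodes ZIP8, which carries manganese and zinc, and was at 109, 103 and 67.2 TPM in control and 170, 43.2 and 33.7 TPM in *Snd1* KO clones, with Snd1 KO 1 far above the other clones. The log2 difference of *Slc39a8* was -0.53 and ran from -1.24 without Snd1 KO 1 to -0.085 without Snd1 KO 3, and that of *Mt3* was -0.28 and ran from -0.77 without Snd1 KO 1 to 0.016 without Snd1 KO 2. *Mtf1*, which encodes the zinc-sensing transcription factor and was named after its values were seen, was even between clones, at 12.5 to 13.5 TPM in control and 13.2 to 14.1 TPM in *Snd1* KO (log2 difference 0.07, 95% interval -0.21 to 0.34). Other genes chosen after their values were seen were *Slc30a4*, a transporter of vesicles, *Slc39a11*, an importer of the Golgi, and *Tmem163*, a zinc transporter of vesicles. *Slc30a4* was at 81.8, 95.1 and 53.2 TPM in control and 65.2, 46.3 and 58.0 TPM in *Snd1* KO clones. *Slc39a11* was at 8.48, 7.95 and 2.39 TPM and at 7.53, 1.99 and 3.06 TPM, with a log2 difference of -0.49 that ran from -0.97 without Control 3 to -0.17 without Snd1 KO 2. *Tmem163* had the highest difference of the list, at 21.1, 18.0 and 37.1 TPM in control and 44.7, 29.0 and 29.5 TPM in *Snd1* KO clones (log2 difference 0.46, from 0.26 without Control 2 or Snd1 KO 1 to 0.76 without Control 3). Control 3 was the lowest control clone for *Slc30a4* and *Slc39a11* and the highest for *Tmem163*, and lay within the range of the *Snd1* KO clones for all 3.

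Metallothioneins also bind copper, so 12 copper handling genes were examined beside them, and 11 were tested. By limma 0 passed the threshold and 0 had an unadjusted p under 0.05 or groups that did not overlap, with 5 fitted above 0, 6 below and a median log2 difference of -0.01. In deposited TPM the 3 most abundant were *Sod1*, the copper and zinc superoxide dismutase (1595 to 2227 TPM over the clones), *Atox1*, a copper chaperone (78.7 to 119 TPM), and *Slc31a1*, the copper importer (69.3 to 90.7 TPM). With each exonic base counted once, *Ccs*, the copper chaperone of SOD1, came after *Sod1* instead (127 to 173 TPM, against 79.4 to 120 TPM for *Atox1*). The copper exporter *Atp7a*, chosen after its values were seen, was at 78.8 TPM in Snd1 KO 1 and at 26.7 to 39.5 TPM in the other clones. Snd1 KO 1 thus stood apart in *Atp7a*, *Slc39a8*, *Mt3*, *Mt1* and *Mt2*. Over 11368 genes its highest r with another clone was 0.938, the lowest such value of the clones, so standing apart was not particular to these genes. It also held the highest *Gcg* value (1100 TPM, with 55.2 to 314 TPM in the other clones), whose part in these values was not tested.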

How the data were processed

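Libraries were prepared from cDNA with the Nextera XT kit and sequenced as paired ends, and the authors deposited 1 TPM value per gene and clone, scaled to 1000000 per library. The submitters' processing notes name FastQC, Trimmomatic, HISAT2, HTSeq, DESeq2 and mm10. The annotation release and the strand setting of the counting are not given in the sources used here. Of 53801 mouse genes listed, 53706 were matched to GENCODE M21, and 99 spike-in controls, at most at 1.02 TPM, were left out. TPM multiplied by the summed exon length gave whole reads (within 0.01) for 93.53% of the values above 0. For 1327 genes a length that gives whole reads was then searched and found for 1274, *Slc30a6* and *Slc39a7* among them, which by construction raised the share to 98.93%. These reads gave the depth. Whether mates or pairs were counted is not stated. The number of reads per library in the study's methods is lower than these totals, and the totals would lie within it if each mate was counted separately. Counts of reads cover counting error only.

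The deposited TPM were taken as log2(TPM + 1), and genes whose mean reached 0.5 TPM were compared between 3 *Snd1* KO and 3 control clones by limma 3.58.1 (R 4.3.3, eBayes with a trend) with Benjamini-Hochberg adjustment over all genes. A fold change on this scale understates that of low genes. Genes were called at an adjusted p under 0.05 and at least 2-fold. Exact permutation tests were two-sided. Python 3.11.15, numpy 2.4.6, pandas 2.3.3, scipy 1.17.1 and matplotlib 3.10.9 served for the rest. Groups and clone numbers came from the labels. The members and gene lists were chosen with earlier results of these data known. Beside the members, the genes named were *Snd1*, list genes with an unadjusted p under 0.05 or groups that did not overlap, the 3 most abundant genes per list, and the 3 genes most like *Slc30a8* and *Mt1*. *Mtf1*, *Slc30a4*, *Slc39a9*, *Slc39a10*, *Slc39a11*, *Tmem163*, *Atp7a*, *Ccs*, the cell type markers the text names and the neighbours of *Slc30a8* fall outside this rule. Overlap between genes was searched as 100-base windows of annotated transcripts on both strands.

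Alternatives were a replicate block by the number of the clone, omission of each clone in turn, limma's clone quality weights, pseudocounts of 0.1 and 0.01, a filter at 5 TPM or none, median ratio scaling, quantile normalization, a robust trend or none, an adjusted p under 0.1, no fold limit, voom on the recovered reads, and TPM in which an exonic base counts a single time.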

Additional observations from a re-analysis of the deposited data

How the results depend on the processing

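Every member had at least 458 reads in every clone. With equal weights 0 members were called under every alternative. Clone quality weights called 1 member (*Slc30a8*), 2 other zinc genes (*Slc39a8* and *Slc39a11*) and 895 of all genes, in place of 0, 0 and 1. With these weights the log2 difference was -1.40 for *Slc39a8* and -1.09 for *Slc39a11* (limma adjusted p = 0.0385 and 0.0469). The count of all genes was 0 without a filter, without a trend, under voom and with the replicate block, 2 at an adjusted p under 0.1, and 0 to 1 when each clone was left out. The clone numbers did not pair the samples (correlations of same-numbered deviations 0.115, -0.199 and -0.108), and the replicate block changed no other count by over 1.5 times.

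At an unadjusted p under 0.05 there were 2 members in place of 1 with the filter at 5 TPM, quantile normalization, the median ratio and voom, each time *Slc30a8* and *Slc39a14* (8.15% to 8.75% of all genes), and 4 with clone quality weights, a setting that put 32.6% of all genes under that limit. Leaving out each clone gave 0 to 2, with 0 without Control 1, Control 2, Snd1 KO 2 or Snd1 KO 3, 2 without Control 3 (*Slc30a8* and *Slc39a14*, 13.9% of all genes) and 1 without Snd1 KO 1 (14.3%), which was *Slc30a6* in place of *Slc30a8*. For the other zinc genes this count was 1 in place of 0 without a filter (5.82% of all genes), with quantile normalization, the median ratio and voom, 6 with clone quality weights, and 0 to 3 with each clone left out (4.26% to 14.3% of all genes), the 3 without Control 3. Members with groups that did not overlap numbered 2 with quantile normalization (14.2% of all genes), and 1 to 4 with each clone left out, the 4 without Control 3 or without Snd1 KO 1, where 35% and 33.5% of all genes did not overlap, against 18.1% to 21.8% for the other omissions. Under the median ratio and voom (14.4% and 14.2%) the count was 1, but the gene was *Slc39a14* in place of *Slc30a8*. Of the other zinc genes, *Slc39a1* and *Slc39a13* were lower without overlap in every setting. Without Control 3, *Slc30a4*, *Slc39a10* and *Slc39a11* were also lower and *Tmem163* higher, and without Snd1 KO 1, *Slc39a8* and *Mt3* were also lower. *Mtf1* was higher without Control 1 or Snd1 KO 3, and *Slc39a9* without Snd1 KO 2. Leaving out 2 clones took r of *Mt1* and *Mt2* to 0.306. Counting each exonic base once took the *Slc30a8* share in *Snd1* KO to 70.2%.

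The sign of *Slc30a8*, *Slc30a6* and *Slc39a14* was the same under all alternatives. Over the omissions of single clones, the log2 difference ran from -0.37 to 0.042 for *Slc30a1* (above 0 without Control 1 or Control 2), from -0.21 to 0.017 for *Slc30a5* and -0.43 to 0.026 for *Slc39a7* (above 0 without Snd1 KO 2), and from -0.043 to 0.24 for *Slc30a7* (below 0 without Snd1 KO 1). It ran from -0.020 to 0.15 for *Slc39a6* (below 0 without Control 3, Snd1 KO 1 or Snd1 KO 3), from -0.29 to 0.32 for *Mt1* (above 0 without Control 3 or Snd1 KO 1) and from -0.36 to 0.13 for *Mt2* (above 0 without Snd1 KO 1). With clone quality weights it was -0.45 for *Slc30a1* (limma adjusted p = 0.0695), -0.041 for *Slc30a7*, 0.31 for *Mt1* and 0.023 for *Mt2*, and with the median ratio -0.0067 for *Slc39a6*. The cause of these changes was not tested.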
